A study of Mus musculus with 6 samples.

Results

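H19, Afp, Igf2, Gpc3, Golm1, Ly6d and Tff3 are genes used as markers of fetal liver, of liver tumors or of both. They were followed here mouse by mouse in livers with and without hepatocyte SHMT2. These 7 genes were taken by symbol from the 49671 genes of the count table, each matched 1 entry, and all 7 were among the 16089 genes that passed the filter on low counts. The list was proposed from the same comparison of genotypes that is described below, because H19 varied widely among the knockout mice. The members' fold changes are therefore given as a description, and how many of them passed the threshold set over all genes is stated beside the share of all genes that did, as a count that supports nothing about the list.

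Liver RNA was sequenced from 6 C57BL/6J males, 3 WT and 3 KO. WT mice carried floxed Shmt2 alleles (SHMT2 fl/fl) without Cre. KO mice carried the same floxed alleles together with a Cre driven by the Albumin promoter (SHMT2 HKO), which targets the gene in hepatocytes. The paper proposes that SHMT2 in the other liver cells was unaffected, which bulk liver RNA does not show. From 4 weeks of age both groups were kept for 18 weeks on the AMLN diet, whose load of fat, fructose and cholesterol produces fatty liver with inflammation and fibrosis, so the mice were 22 weeks old at harvest. Levels are given as CPM, a gene's counts scaled to the size of the library. Shmt2, which encodes the mitochondrial serine hydroxymethyltransferase, measured 94.6, 109 and 93.9 CPM in WT and 24.9, 28.3 and 19.3 CPM in KO, with no overlap between genotypes. Its log2 fold change of KO against WT was -2.04 ± 0.16 (SE), with an adjusted p of 6.4e-04 in the edgeR quasi-likelihood test. An exact permutation test gave p = 0.1 (two-sided), the smallest value that 3 mice against 3 can give.

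In the fetal liver, hepatoblasts make alpha-fetoprotein (Afp), insulin-like growth factor 2 (Igf2) and the long noncoding RNA H19, and all 3 are shut down within weeks of birth. They return in many hepatocellular carcinomas, as does the cell-surface proteoglycan glypican-3 (Gpc3). GP73 (Golm1), a Golgi membrane protein, is low in normal hepatocytes and is raised in chronic liver disease and in liver cancer. Ly6d, a small GPI-anchored surface protein of the Ly6 family, and Tff3, a secreted trefoil peptide of mucous epithelia, are better known from lymphoid precursors and from epithelium, and both appear in damaged liver or its bile ducts. Outside the liver, H19 and Igf2 are also among the most abundant transcripts of placenta and embryo, and Afp is made by the yolk sac.

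H19 and Igf2 are neighbours and oppositely imprinted, H19 being expressed from the maternal and Igf2 from the paternal allele. In the annotation used here (GRCm38, GENCODE M21), H19 (ENSMUSG00000000031) lies on the minus strand at chr7:142575529-142578143 as a noncoding gene with 2460 exon bases, and Igf2 (ENSMUSG00000048583) lies 72.6 kb away at chr7:142650766-142666816 on the same strand. Each hosts a microRNA. Their mature forms are shown because they are the parts of these transcripts with a defined sequence of action. Capitals mark the seed, bases 2 to 8 from the 5′ end. The sequences and positions are from RefSeq for GRCm38.p6, all on the minus strand, at chr7:142577112-142577133, chr7:142577078-142577099, chr7:142654968-142654989 and chr7:142654932-142654952 in the order printed.
mmu-miR-675-5p: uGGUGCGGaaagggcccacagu
mmu-miR-675-3p: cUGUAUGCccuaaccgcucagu
mmu-miR-483-5p: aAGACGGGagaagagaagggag
mmu-miR-483-3p: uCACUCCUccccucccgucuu
The 4 seeds differ from each other. The entries for both miRNA precursors held 0 counts in all 6 mice, and nothing about the mature miRNAs can be read from these libraries.

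Library KO1 stood apart from the other 5 and bears on several of the results below. It held counts for transcripts of placenta, embryonic blood and brain that were absent or low in the other livers. Tpbpa, which marks the spongiotrophoblast of the placenta, had 1439 counts in KO1 and 0 in each of the other 5 mice. Prl3b1, a placental lactogen, had 956 counts in KO1 and 0 elsewhere. Of a list of 19 trophoblast markers, all 19 were detected in KO1, 15 had 0 counts in all 5 other mice, and their summed level was 224 CPM in KO1 against 0.0752 to 0.294 CPM in the others. Several of these genes are members of the Prl and Psg families, whose near-identical copies may share reads.

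The embryonic globins, made by the primitive red cells of the embryo, were also present in KO1. Hbb-y had 242 counts and Hba-x had 57 counts in KO1 and 0 in every other mouse, and the 3 embryonic globins summed to 12.9 CPM in KO1 against at most 0.0261 CPM elsewhere. Among 19 neuron and glia markers, 16 were at least 4-fold higher in KO1 than in any other mouse, and their sum was 284 CPM against 29.7 to 42.4 CPM. Snap25, a protein of the synapse, had 805 counts in KO1 and at most 1 in the others. Aqp4 was the 1 marker of that list that was not highest in KO1, at 9.38 CPM there and 12.3 and 14.8 CPM in KO2 and KO3.

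Xist, the RNA that silences an X chromosome in female cells, was at 10.1 CPM in KO1 and at 0.391 to 1.35 CPM in the other 5 mice, although all mice were described as male. The Y-linked genes Ddx3y and Eif2s3y were at 48.7 and 60.7 CPM in KO1, at 50.9 and 58.0 CPM in KO2 and at 54.6 and 56.2 CPM in KO3. Of 11 markers of kidney, testis, lung, pancreas and skeletal muscle, 9 had 0 counts in KO1 and the highest, the kidney gene Umod, had 10. Over the whole table, 153 genes had at least 10 counts in KO1 and 0 in all other mice, holding 0.0442% of the gene counts of KO1. The same rule found 1 gene in WT3 and 0 in each of the other 4 mice. The marker lists of this check were chosen after the counts were seen. Whether library KO1 holds RNA of another sample was not tested, and its values of Afp, Igf2 and H19 are read with that limit. The members' fold changes and the counts of each gene list are given with and without KO1.

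**Figure D1:**
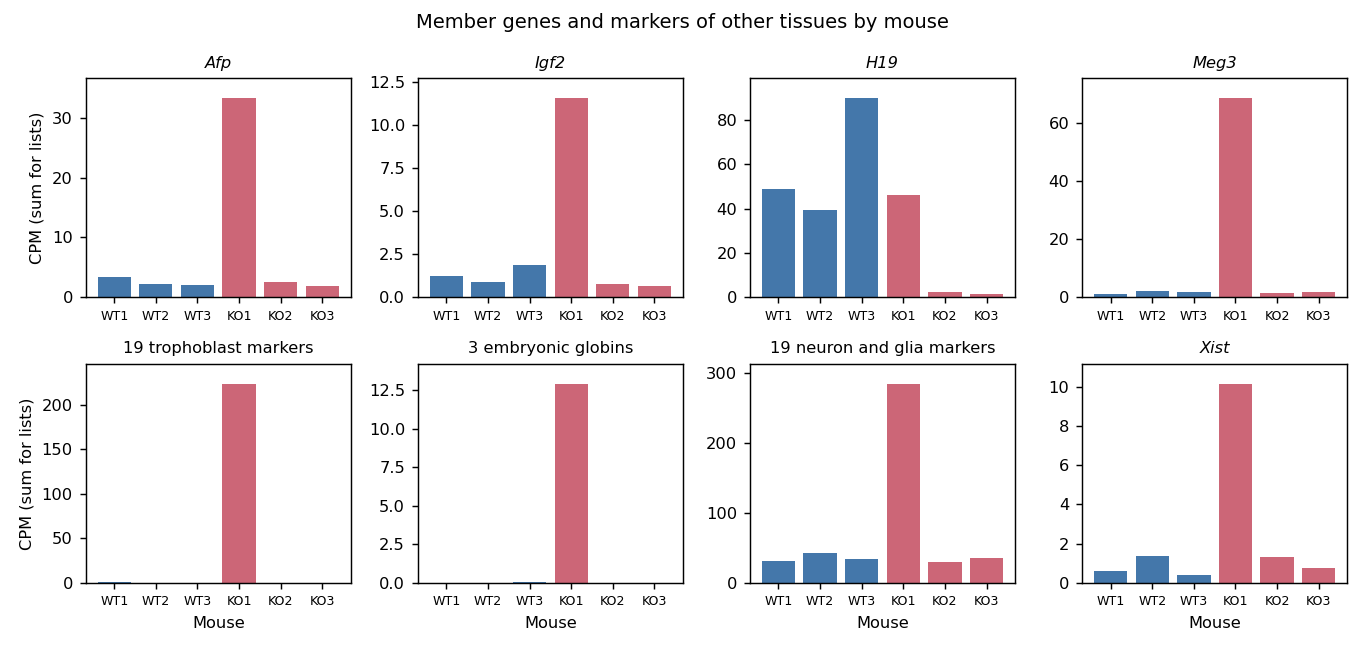
Level in each mouse (CPM, linear axes from 0, with a scale for each panel) of Afp, Igf2, H19, the imprinted RNA Meg3 and Xist, and the summed CPM of 19 trophoblast markers, 3 embryonic globins and 19 neuron and glia markers, with WT in blue and KO in red. KO1 is the highest mouse in every panel but that of H19, where KO1 lies within the range of WT.

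Afp (ENSMUSG00000054932, chr5:90490737-90508907, plus strand) encodes the main serum protein of the fetus and lies 14.1 kb downstream of its adult counterpart, albumin. Afp was measured at 3.28, 2.14 and 2.04 CPM in WT1, WT2 and WT3. In KO mice it was 33.3 CPM in KO1, 2.48 CPM in KO2 and 1.89 CPM in KO3. KO1 was therefore 10.2-fold above the highest other mouse, while KO2 and KO3 lay within or just below the WT range, and the genotypes overlapped. The fitted log2 fold change was 2.33 ± 1.07 (SE) with all mice and -0.19 ± 0.32 without KO1, so its sign rested on that mouse.

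Igf2, the fetal growth factor, also had its highest value in KO1. It was at 1.20, 0.903 and 1.85 CPM in WT and at 11.5, 0.760 and 0.630 CPM in KO1, KO2 and KO3, from 272, 15 and 16 reads in the KO mice. KO1 was 6.23-fold above the highest other mouse, and KO2 and KO3 were the lowest of the 6. The log2 fold change was 1.70 ± 1.07 with all mice and -0.94 ± 0.42 without KO1. An annotated transcript, Gm49394, shares 3596 exon bases with Igf2 and has no entry among the counts used here, so reads of the pair cannot be told apart.

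H19 was abundant in WT livers, at 48.9, 39.3 and 90.0 CPM, and far lower in KO2 and KO3, at 2.43 and 1.46 CPM. KO1, at 46.2 CPM, lay inside the WT range and 23.8-fold above the mean of KO2 and KO3. The mean of WT was 30.5-fold above the mean of KO2 and KO3, and both mice lay below every WT mouse. The log2 fold change was -1.83 ± 1.18 with all mice and -4.95 ± 0.47 without KO1. The depth does not limit this contrast, since WT mice had 1044 to 3447 reads of H19 and KO2 and KO3 had 48 and 37.

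Among the KO mice, KO1 was at least 15.2-fold above the mean of KO2 and KO3 for each of Afp, Igf2 and H19. Set against the mean of WT the 3 genes differed. KO1 was at 13.4 times that mean for Afp and 8.76 times for Igf2, but at 0.778 times for H19. A level in KO1 at least 4-fold above the mean of KO2 and KO3 was found for 397 of the tested genes, or 2.47%. Afp, Igf2, H19 and also Tff3 (6.02-fold) were among them. Since the list was proposed because H19 varied among the KO mice, nothing is read from this. A level in KO1 of at least 0.5 CPM and at least 4-fold above every other mouse was found for 97 tested genes, or 0.603%. Afp and Igf2 were 2 of these. Genes seen almost only in KO1, such as Tpbpa and Pappa2, did not pass the filter and are outside these counts. In the other mice the same rule found 5 genes in WT2 (0.0311%), 4 in KO2 (0.0249%) and 0 in WT1, WT3 and KO3. The part that the placental, embryonic and neural transcripts of KO1 have in the levels of Afp, Igf2 and H19 in that mouse was not tested.

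**Figure D2:**
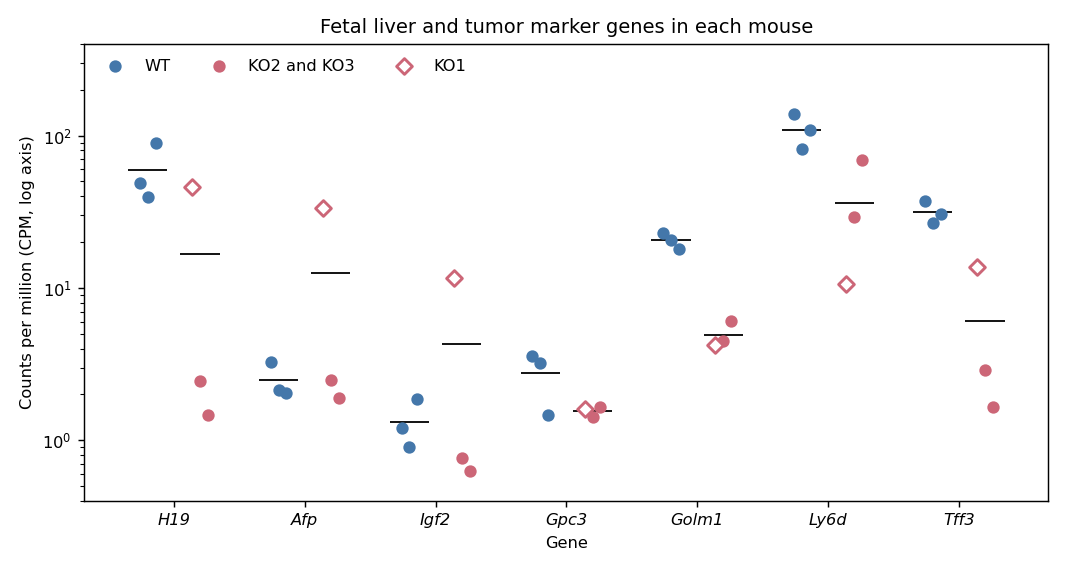
CPM (log axis) of each of the 7 genes in the 3 WT mice (blue circles), KO1 (open red diamonds) and KO2 and KO3 (red circles), with a black bar at each group mean. KO1 lies far above KO2 and KO3 for H19, Afp and Igf2, while for Golm1, Ly6d and Tff3 every KO mouse lies below every WT mouse.

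Gpc3 (ENSMUSG00000055653, chrX:52272426-52613950, minus strand) encodes glypican-3, a heparan sulfate proteoglycan that is anchored in the cell membrane and modulates Wnt and hedgehog signals. It was low in all mice, at 3.55, 3.24 and 1.46 CPM in WT and 1.61, 1.42 and 1.65 CPM in KO. WT3 was as low as the KO mice, and the genotypes overlapped. Its log2 fold change was -0.81 ± 0.36 with all mice and -0.83 ± 0.41 without KO1. KO1 lay between KO2 and KO3.

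Golm1 (ENSMUSG00000021556, chr13:59634626-59675811, minus strand) had the smallest error of its fold change among the 7. It was at 23.1, 20.6 and 18.0 CPM in WT and at 4.20, 4.46 and 6.06 CPM in KO, and KO1 was the lowest of the KO mice. The log2 fold change was -2.06 ± 0.19 with all mice and -1.96 ± 0.20 without KO1. Golm1 shares 1297 exon bases with Naa35, a gene on the opposite strand that had 638 to 1091 reads per mouse. The strand setting of the counting is not given in the sources used here, so reads of the overlap cannot be told apart.

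Tff3 (ENSMUSG00000024029, chr17:31125306-31129646, minus strand), the trefoil peptide, was at 37.1, 26.6 and 30.8 CPM in WT and at 13.7, 2.89 and 1.65 CPM in KO. All KO mice were below all WT mice, and KO1 was 6.02-fold above the mean of KO2 and KO3. For Tff3 the log2 fold change was -2.37 ± 0.69 with all mice and -3.81 ± 0.27 without KO1.

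Ly6d (ENSMUSG00000034634, chr15:74762056-74763620, minus strand) had the reverse order among the KO mice. It was at 138, 81.3 and 109 CPM in WT and at 10.7, 29.4 and 69.1 CPM in KO1, KO2 and KO3. Every KO mouse was below every WT mouse, but KO3 was closer to WT2 than to KO1. Its log2 fold change was -1.59 ± 0.60 with all mice and -1.15 ± 0.37 without KO1.

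**Figure D3:**
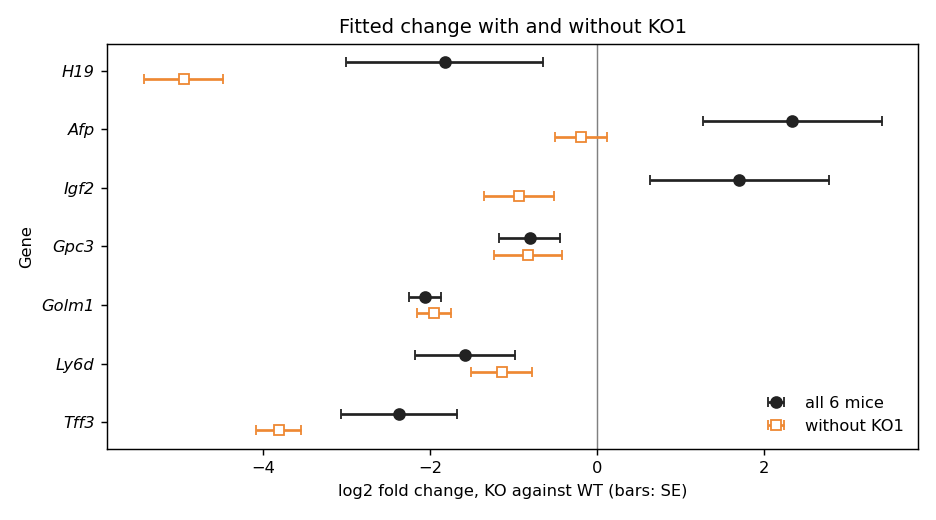
Fitted log2 fold change of KO against WT (x axis, bars are SE) of each member with all 6 mice (black circles) and without KO1 (open orange squares). Afp and Igf2 change sign without KO1, H19 and Tff3 move further down, and Gpc3 and Golm1 hardly move.

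At an adjusted p under 0.05 over all genes tested, 2 of the 7 members (Golm1 and Tff3) fell in KO and 0 rose. Of all tested genes, 16.5% were lower (2651) and 12.5% higher (2012) in KO at that threshold, 29.0% in all. This balance depended on the scaling, since ERCC spike-in scaling gave 2759 lower and 107 higher, no TMM 4923 and 539, and upper quartile 3039 and 1461. Without KO1, 3 of 7 (H19, Golm1 and Tff3) were lower, where 17.4% of all genes were lower and 12.0% higher. For 3 of 7 members every KO mouse was below every WT mouse, as it was for 25.0% of all genes, and for 0 of 7 was every KO mouse above every WT mouse, against 21.9%. Since the members were chosen on this contrast, nothing is read from these counts. Tff3 was no longer counted when KO2, KO3 or any single WT mouse was left out, and Golm1 was counted in each of these fits.

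Between genes, levels were compared per kilobase of exon. In WT livers the order of mean CPM per kb was Ly6d (147 ± 38.2, SD, n = 3), Tff3 (63.9 ± 10.7), H19 (24.1 ± 10.9), Golm1 (4.65 ± 0.58), Gpc3 (1.02 ± 0.42), Afp (0.738 ± 0.204) and Igf2 (0.230 ± 0.085). The ranges of Gpc3 and Afp overlapped, and the other neighbours in this order did not. In KO2 and KO3, Ly6d was still the highest at 39.5 and 92.8 CPM per kb, and H19 had moved from the third place to 0.988 and 0.592 CPM per kb, next to Afp at 0.737 and 0.561. In KO1, H19 (18.8 CPM per kb) and Afp (9.89) stood above Golm1 (0.950).

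Over the 6 mice, the pairs of members whose log2 CPM ran most nearly together were H19 with Tff3 (Pearson r = 0.965) and Afp with Igf2 (r = 0.936), genes for which KO1 was the highest of the KO mice, and the most opposed pair was Afp with Ly6d (r = -0.801). Of 12320 genes of sufficient level, those most like each member by the same measure were Zfas1, Ckb and Nme7 for H19, Golga2, Eif3e and Cir1 for Afp, and Gas5, Gnl2 and Rrp9 for Igf2. They were Tmem181b-ps, Rad18 and Zbtb46 for Gpc3, Casp12, C7 and Myo15b for Golm1, Syk, Asah1 and Clec7a for Ly6d, and Fndc5, Gm26782 and Aif1 for Tff3, with r between 0.974 and 0.999 over all 21. These 6 points share genotype and library effects and include KO1, the values without KO1 were not computed, and no test was made.

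Markers of several liver cell types also differed between genotypes. All 9 markers of bile duct cells (cholangiocytes) fell in KO, and their summed level was 1027 to 1286 CPM in WT and 152, 153 and 269 CPM in KO. Most of each sum was Spp1, at 792 to 944 CPM in WT and 104, 105 and 215 CPM in KO. Of 9 markers of stellate cells and myofibroblasts 5 fell (Des, Pdgfrb, Col1a1, Col1a2 and Col3a1) and Reln rose. The sums of the 9 were 1287 to 1314 CPM in WT and 293, 436 and 752 CPM in KO1, KO2 and KO3. Col1a1, Col1a2 and Col3a1 made up most of each sum. Ly6d had the same order among the KO mice. So did single markers of other cell types, among them Adgre1, Trem2, Gpnmb, Cd3e and Mki67. Other markers of these types, such as Cd68, Clec4f, Cd3d and Top2a, did not. Of 8 macrophage markers Cd68, Csf1r and Trem2 fell, and Clec4f and Vsig4, both of resident Kupffer cells, rose. Of 5 T cell markers 4 fell (Cd3e, Cd3d, Cd3g and Cd8a), and of 5 proliferation genes 3 fell (Mki67, Ccnb1 and Cdk1), while 5 B cell markers summed to 5.45 to 6.78 CPM in WT and to at most 4.71 CPM in KO. Of 10 hepatocyte markers Ttr and Apob rose (0.82 and 0.63 on the log2 scale). Ttr overlapped between genotypes and lost its call without KO1. Of 6 endothelial markers Stab2 (0.55) and Clec4g (1.93) rose, and of 4 tested erythroid markers Alas2 (0.78) rose. All these rises of cell type markers are with TMM scaling. ERCC scaling shifted the median log2 fold change of all genes by -0.72, and the values of these markers under it are not given here. Without KO1, Kdr and Lyve1 of endothelium also rose, the T cell marker Cd4 and the proliferation gene Top2a also fell, and apart from the loss of Ttr the counts of the other cell types were the same. In bulk liver, fewer cells of a type and less RNA per cell cannot be told apart. The part of these cell types in the levels of the members was not tested.

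**Figure D4:**
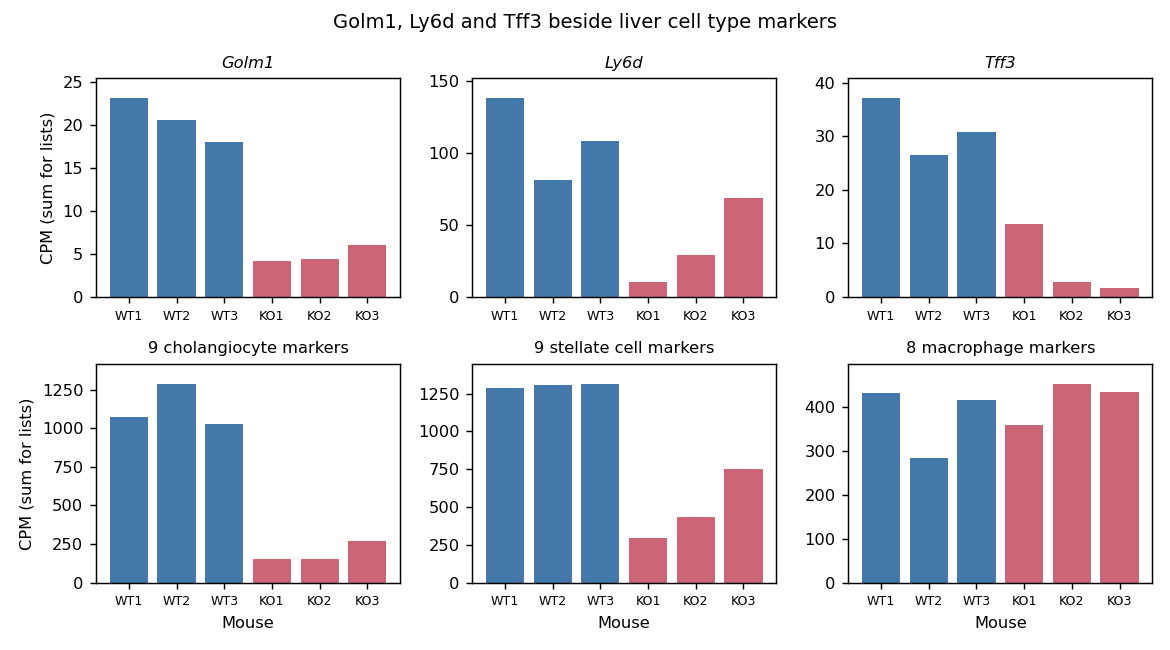
Level in each mouse (CPM, linear axes from 0) of Golm1, Ly6d and Tff3, and the summed CPM of 9 cholangiocyte, 9 stellate cell and myofibroblast and 8 macrophage markers, with WT in blue and KO in red. The cholangiocyte sum, most of it Spp1, is below every WT value in all KO mice. The stellate cell sum, most of it collagen, and Ly6d are both lowest in KO1 and highest in KO3. Some single macrophage markers, such as Trem2, share that order. The macrophage sums of the genotypes overlap.

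Other markers of fetal liver, progenitors and tumors were mostly lower in KO. Of 24 tested genes of that list 15 fell and 1 rose, with a median log2 fold change of -1.41 against 0.03 over all genes tested, and without KO1 16 fell and 1 rose. Tspan8, a tetraspanin, fell from 48.7 ± 10.4 to 4.48 ± 2.02 CPM (SD, n = 3 each), and the adhesion molecule Epcam from 66.3 ± 18.8 to 7.60 ± 3.41 CPM. Cd24a, a surface glycoprotein of progenitor and tumor cells, had a log2 fold change of -2.99 ± 0.29, and the duct keratin Krt19 one of -2.97 ± 0.34, with adjusted p-values of 9.4e-04 and 0.0014 in edgeR. Glul, the glutamine synthetase of pericentral hepatocytes, was the gene that rose (log2 fold change 2.01 ± 0.30). Of this list, Krt19, Krt7, Epcam, Sox9 and Spp1 are also among the cholangiocyte markers above.

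With TMM scaling, the genes around Igf2 in the IGF axis moved in both directions. Of 17 tested, 4 fell (Igf1r, Igfbp1, Igfbp7 and Pappa) and 4 rose (Igf1, Insr, Igfals and Igf2bp2), with a median log2 fold change of -0.21. With ERCC scaling Igf1 did not rise and Igf2bp2 did not pass, as given below. The values of Insr and Igfals under ERCC scaling are not given here. Without KO1 the fetal Igf2bp3 also fell and Igf1 lost its call. Igf2bp3 had only 4 and 2 counts in KO2 and KO3, around the floor of 3 counts, and 0.339 to 1.69 CPM in WT. Igf1r, the receptor through which both IGFs signal, fell from 12.9, 20.3 and 14.5 CPM to 6.66, 4.25 and 7.32 CPM, with an adjusted p of 0.0061 in edgeR. Pappa, a protease that frees IGFs from their binding proteins, had a log2 fold change of -2.29 ± 0.43, and the binding proteins Igfbp1 and Igfbp7 had -1.85 ± 0.53 and -1.69 ± 0.23.

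Igf1, the growth factor of the adult liver, rose from 284, 286 and 303 CPM to 504, 409 and 351 CPM (log2 fold change 0.53 ± 0.17, adjusted p = 0.042 in edgeR). Without KO1 the fold change was 0.39 (adjusted p = 0.084), and with ERCC scaling it was -0.26. Igf2bp2, which binds Igf2 mRNA, rose (1.42 ± 0.35, and 0.79 with ERCC scaling, which did not pass), whereas its fetal relative Igf2bp1 had 12 counts in KO1 and 0 to 3 in the others. Igf2r, which clears Igf2, was at 44.7 ± 0.827 CPM in WT and 45.5 ± 8.01 CPM in KO (adjusted p = 0.91). Pappa2, a related protease abundant in placenta, had 511 counts in KO1 and 1 in the other 5 mice together.

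Of 23 other imprinted genes tested, 5 passed the threshold, against 29.0% of all genes. Peg3, Snrpn and Zrsr1 rose, Sgce and Grb10 fell, and 4 that did not pass (Meg3, Rian, Peg10 and Nap1l5) were at least 4-fold higher in KO1 than in any other mouse. Of the listed genes too low to be tested, Dlk1, Mirg, Usp29 and Zim1 were so too, at 16 to 30 counts in KO1. Rtl1 and Ascl2 were not. Meg3, the maternally expressed RNA of the Dlk1 region, was at 68.5 CPM in KO1 and between 1.08 and 1.96 CPM in the other mice, and its log2 fold change went from 3.96 to -0.06 without KO1. The log2 fold change of Peg3 was 1.69 ± 0.53 with all mice and 0.80 without KO1, and with ERCC scaling Peg3 (0.78) and Snrpn (0.34) did not pass. Sgce (-1.53 ± 0.17), Grb10 (-1.10 ± 0.28) and Snrpn (1.19 ± 0.21) had the same direction in all KO mice, with adjusted p-values of 0.0012, 0.021 and 0.0058 in edgeR. The list's median was 0.27 with all mice and -0.07 without KO1.

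Among the regulators of Afp, H19 and Igf2, 0 were 4-fold higher in KO1 than in every other mouse. Of 22 tested, 5 rose, among them Foxa1, Foxa2, Onecut1 and Cebpa, and 2 fell, among them Trp53, and 5 and 2 were also found without KO1. Zhx2 and Zbtb20, the repressors that silence Afp after birth, were at 27.6 ± 4.07 and 158 ± 13.1 CPM in WT and at 27.1 ± 2.35 and 154 ± 28.4 CPM in KO (adjusted p = 0.92 and 0.89 in edgeR). Onecut1, a liver-enriched activator, rose from 6.83, 7.79 and 7.15 CPM to 36.8, 24.8 and 54.7 CPM. Foxa1 and Foxa2, pioneer factors of Afp and albumin enhancers, rose (0.94 ± 0.29 and 0.81 ± 0.14 on the log2 scale), but with ERCC scaling they were at 0.42 and 0.037 and did not pass. In the albumin family itself Afm rose with and without KO1 (0.95 ± 0.19, adjusted p = 0.0091, but 0.10 and not past the threshold with ERCC scaling), and Alb, at 34486 to 43319 CPM in WT and 42706 to 65656 CPM in KO, did not pass the threshold (0.56 ± 0.25, adjusted p = 0.13, and -0.26 with ERCC scaling).

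**Figure D5:**
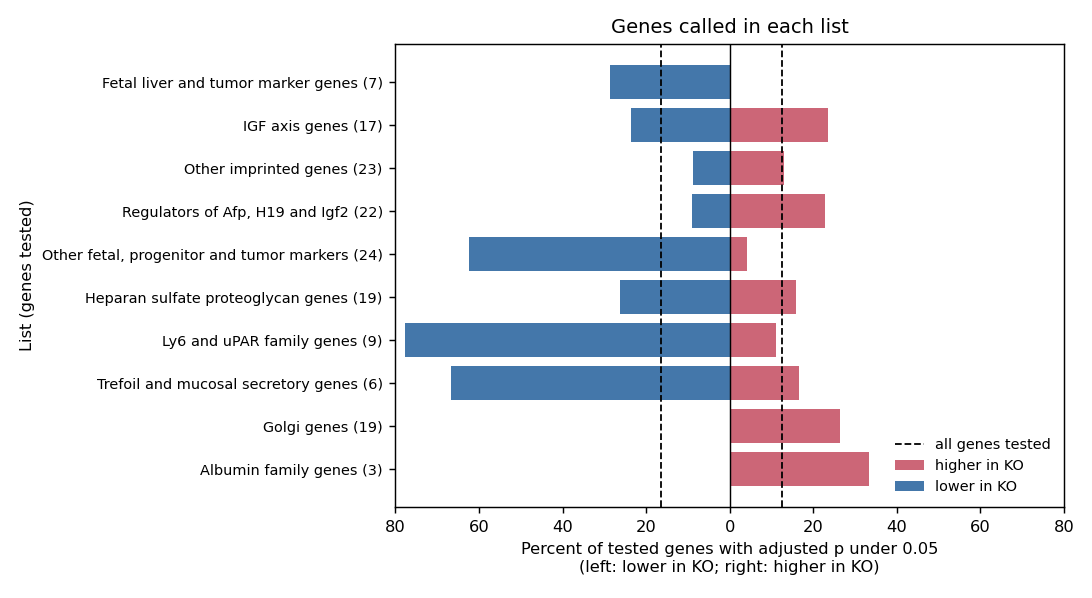
Percent of the tested genes of each list with an adjusted p under 0.05 (x axis, lower in KO to the left in blue, higher in KO to the right in red), with the number tested in brackets and dashed lines at 16.5% and 12.5% for all genes. The Ly6 family, the mucosal genes and the other fetal, progenitor and tumor markers lie mostly to the left, and the Golgi genes lie to the right.

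Relatives of the other members were read in the same way. Among 19 tested genes of heparan sulfate proteoglycans and their modifiers, the company of Gpc3, 5 fell (Gpc2, Hspg2, Agrn, Sulf1 and Hs2st1) and 3 rose (Gpc1, Sdc4 and Cd81), and without KO1 4 fell and 4 rose. Gpc2, another glypican, had a log2 fold change of -1.81 ± 0.42, the basement membrane proteoglycans Agrn and Hspg2 had -1.59 ± 0.15 and -1.21 ± 0.18, and the sulfatase Sulf1 had -1.76 ± 0.33. Gpc1 rose (1.19 ± 0.16), so with TMM scaling the glypicans did not move one way. The values of Gpc1, Sdc4 and Cd81 with ERCC scaling are not given here. Of 19 Golgi genes, the company of Golm1, 5 rose and 0 fell with TMM scaling, namely Golim4 (0.58 ± 0.17), the mannosidase Man1a (0.57 ± 0.16), Gorasp1 (0.55 ± 0.11), Golga4 (0.52 ± 0.12) and B4galt1 (0.44 ± 0.12), whereas with ERCC scaling 0 of the 19 passed and the first 4 had values below 0. Without KO1 the Golgi gene Furin also rose. Golm1 was below 0 under both scalings.

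Ly6d belongs to a family with 14 of its 20 listed genes on chromosome 15. Of 9 tested relatives 7 fell and Cd59a, a complement inhibitor, rose (median log2 fold change -1.55), and without KO1 7 of 10 tested fell and 1 rose. Ly6c1, a marker of endothelium and monocytes, went from 12.0 ± 3.39 to 0.983 ± 0.737 CPM, and Ly6a (Sca-1), a stem cell antigen, from 54.6 ± 9.72 to 12.5 ± 2.03 CPM. Lypd6 and Lynx1, modulators of surface receptors, had log2 fold changes of -2.29 ± 0.61 and -1.75 ± 0.23. Copies of the Ly6 family can share reads.

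Tff3 lies 11.4 kb from Tff2, and Tff2 17.1 kb from Tff1, on chromosome 17. Tff2 was at 1.13, 4.10 and 2.37 CPM in WT and 0.297, 0.203 and 0.118 CPM in KO, a log2 fold change of -3.59 ± 0.60 with an adjusted p of 0.0044 in edgeR. Tff1 had 0 to 8 counts in every mouse and was not tested. Of 6 tested mucosal and secretory genes 4 fell and Pigr, the receptor that carries IgA into bile, rose, and without KO1 Fcgbp joined those that fell. Cftr (-3.67 ± 0.55), Sctr (-3.40 ± 0.36) and Muc1 (-3.24 ± 0.31), a chloride channel, the secretin receptor and a membrane mucin of bile duct epithelium, fell beside Tff2. Cftr and Sctr are also among the cholangiocyte markers above.

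Counts on genes ranged from 23090837 to 34089722 per mouse, and a floor of 3 counts was 0.0734 to 0.152 CPM, for counting error only. ERCC spike-in RNAs made up 1.35% to 2.75% of counts, highest in KO1. Replicates of a group differed by more than sampling noise in every pair, with KO1 the farthest from the other KO mice. The labels give each mouse a number but do not say whether mice shared a litter, an extraction or a sequencing run.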

How the data were processed

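The members and lists were chosen with earlier results of these data known. Per the labels and the study's methods, liver RNA libraries were sequenced as read pairs, trimmed with Trimmomatic 0.36 and aligned with STAR 2.5.2b to GRCm38 with ERCC sequences, and reads per gene were counted with featureCounts (Subread 1.5.2, named in the submitters' processing notes). The deposited values are raw counts, without normalization. Of 49671 gene entries, 345 had no symbol here and held 0.0416% of counts, and 92 ERCC entries were kept out of library sizes and tests.

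Counts were filtered with filterByExpr, scaled by TMM and tested by the robust quasi-likelihood F test of edgeR 4.0.16 (R 4.3.3), two-sided, with Benjamini-Hochberg adjustment over 16089 genes. CPM use TMM-scaled library sizes, and an SE is the fold change over the root of F. P-values set the difference between genotypes against the spread between these mice, moderated over all genes. The code was tested on simulated data. Alternatives were DESeq2 1.42.0, limma-voom 3.58.1, no TMM, upper quartile, ERCC scaling, no filter, 10 counts in every sample, no robust dispersion, the replicate block and leaving out each mouse. Genes named were Shmt2, the members, 8 fixed partners, up to 4 genes per list with the largest change past the threshold, and 3 genes most like each member. The lists of trophoblast, globin, neural and other-tissue markers and all further names, such as genes singled out in KO1 and single risers of a list, were chosen after their values were seen. Some genes of the lists are counted but not reported here by name.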

Additional observations from a re-analysis of the deposited data

How the results depend on the processing

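With all mice, 2012 genes were higher and 2651 lower in KO (43.1% of calls higher). ERCC scaling gave 107 higher and 2759 lower (3.73%), and no TMM gave 539 and 4923 (9.87%). These scalings shifted the median log2 fold change of all genes by -0.72 and -0.42, and upper quartile gave 32.5% higher. Leaving out a mouse gave 805 to 2521 higher and 1621 to 3076 lower.

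Of the members, 2 passed the threshold. ERCC scaling and limma-voom gave 4 (H19, Golm1, Ly6d and Tff3), no TMM 4 (Gpc3 in place of H19), no filter 1, and leaving out a mouse 1 to 3. Of these, limma-voom is the test that the paper used, there with a looser cutoff on the adjusted p. H19 was between -3.32 (limma-voom) and -1.83, and Afp between 1.09 (ERCC scaling) and 2.34 outside the fits that left out a mouse. Leaving out a mouse gave -4.95 to -1.32 for H19, -0.19 to 2.81 for Afp and -0.94 to 2.19 for Igf2, each extreme at the negative end being the fit without KO1.

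Among list counts, ERCC scaling gave 2 regulators (7 with TMM), 4 proteoglycan genes (8), 0 Golgi genes (5) and 0 albumin family genes (1). DESeq2 gave 8 imprinted genes (5) and 3 albumin family genes, no TMM 1 Golgi gene, upper quartile 3 Golgi genes, and 10 counts in every sample 2 mucosal genes (5). Leaving out a mouse gave 4 to 8 IGF axis, 2 to 6 imprinted, 3 to 10 regulator, 15 to 17 fetal, progenitor and tumor, 4 to 10 proteoglycan, 5 to 8 Ly6, 5 to 6 mucosal, 1 to 6 Golgi and 1 to 2 albumin family genes.

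The direction turned for Igf1 (-0.26), Alb (-0.26), Golim4 (-0.054), Man1a (-0.068), Gorasp1 (-0.18) and Golga4 (-0.16) with ERCC scaling. Genes near 0 changed sign too. Igf2r did so with 10 counts in every sample (-0.017), ERCC scaling (-0.60), no TMM (-0.38), upper quartile (-0.064), and over a range of -0.15 to 0.13 when a mouse was left out. The same range was -0.13 to 0.079 for Zhx2 and -0.19 to 0.054 for Zbtb20.

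With the replicate number as a block, 1397 genes were higher and 2187 lower, 3 Golgi genes were called in place of 5, and the count of members stayed at 2 (Golm1 and Tff3). Deviations of WT and KO mice of the same number correlated at -0.046, 0.013 and -0.077, not every mouse correlated best with its own number, and the numbers were not read as pairs.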

Other observations

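The 97 tested genes at least 4-fold higher in KO1 than in every other mouse included, beyond the members, the acute-phase genes Saa1 and Saa2. They were at 3405 and 4191 CPM in KO1 and at most 383 and 418 CPM in any other mouse. Several major urinary protein genes were also included, among them Mup7 at 2250 CPM against at most 136 CPM. Mup copies are near-identical and may share reads. Hsd3b5, a liver gene of adult males, was at 165 CPM in KO1 and at most 5.63 CPM elsewhere. Of the fetal genes that were too low to be tested, Dlk1 was at 1.10 CPM in KO1 and at most 0.188 CPM in the other mice. No cause of these levels was tested.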
